A study of Mus musculus with 12 samples.

Results

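Histone deacetylases remove acetyl groups, and in some cases longer acyl groups, from lysines of histones and other proteins. The genes described here are the 9 mouse members of the zinc-dependent family other than Hdac1 and Hdac2, the class I enzymes of the NuRD chromatin remodelling complex: Hdac3 and Hdac8 of class I, Hdac4, Hdac5, Hdac7 and Hdac9 of class IIa, Hdac6 and Hdac10 of class IIb, and Hdac11, the single enzyme of class IV. They were taken by symbol from 54356 annotated genes, and the family was chosen by the measured read counts of Hdac11, which were near 0 in the libraries labelled Chd5-/-. Its level by genotype is therefore given as a description with no test. All 9 were among the 16043 genes that passed a filter on low counts.

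Class I enzymes act mostly in the nucleus as parts of repressor complexes. Class IIa enzymes have weak catalytic activity of their own and act as signal-dependent repressors: they bind MEF2 transcription factors, and when calcium- or stress-activated kinases phosphorylate them, 14-3-3 proteins hold them in the cytoplasm. Class IIb enzymes are largely cytoplasmic, and Hdac11 removes long fatty acyl groups from lysine.

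The RNA came from primary mouse neural stem cells, wild type and Chd5-/- (Chd5 is a chromodomain helicase of NuRD-type complexes), taken 3 h and 48 h after medium with EGF and FGF2 was exchanged for neurobasal medium with B-27, which starts differentiation. Each of the 4 groups had 3 libraries of 14.1 to 18.7 M estimated reads. The labels name no animals, cultures or lines behind the replicates, so p-values measure only the spread between these samples, and they do not give the deleted part of Chd5, the sex or the age of the donors. In bulk RNA, fewer cells of a type and less RNA per cell cannot be told apart.

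The labels were checked against Chd5, which at 3 h was no lower in Chd5-/-. In CPM (reads scaled to a common library total) its range was 3.54 to 4.66 in wild type, below the 5.25 to 7.06 of the Chd5-/- libraries. At 48 h the ranges were 5.28 to 7.15 CPM and 2.96 to 5.70 CPM, and neither difference passed the test (adjusted p = 0.257 and 0.467). The genotype names below are those of the labels. Markers of neural stem cells summed to between 4165 and 8994 CPM and those of microglia and blood to at most 0.512 CPM. The 6 fibroblast and smooth muscle markers, of which 3 passed the filter, summed to 573 to 606 CPM in the Chd5-/- libraries at 3 h, nearly all from Acta2 and with Pdgfrb and Lum at 0, and to between 5.46 and 15.4 CPM elsewhere. 3 libraries stood apart from the others of their group. In wild-type replicate 1 at 3 h, 86 ribosomal protein genes held 15.97% of the reads, against 4.36% and 4.21% in the other libraries of the group. Its reads also lay on shorter transcripts, with a mean length weighted by reads of 1805 bases against 3049 and 3077. The part of this in its values for the members was not tested. Replicate 2 of both genotypes at 48 h kept cell cycle RNA: 8 cell cycle genes summed to 1879 and 1732 CPM there, against 109 to 121 CPM in the other 48 h libraries. Results are given with these 3 libraries and, where it matters, with the 9 that remain. The 9 leave 2 libraries in each group except Chd5-/- at 3 h, which keeps 3. The libraries left out were those unlike their group, so the spread in fits of the 9 is reduced by that choice. Adjusted p-values from the 9 are to be read with this limit.

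Sequence before the start of transcripts of 2 members is shown because Hdac11 is the gene that was nearly without reads in Chd5-/- and Hdac7 had the largest fold change between genotypes at 48 h among the other members. The stretches come from RefSeq promoter windows of build GRCm38.p6 and end at the base before the GENCODE transcript start, with CG dinucleotides in capitals, read 5′ to 3′ on the strand of the gene. That of Hdac11-201 is chr6:91156565-91156664 (plus strand), that of Hdac7-202 is chr15:97831768-97832017 and that of Hdac7-208 is chr15:97814864-97815113 (both minus strand). None contains annotated exon sequence.
Hdac11-201: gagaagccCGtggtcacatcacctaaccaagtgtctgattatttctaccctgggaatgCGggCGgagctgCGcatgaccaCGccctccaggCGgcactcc
Hdac7-202: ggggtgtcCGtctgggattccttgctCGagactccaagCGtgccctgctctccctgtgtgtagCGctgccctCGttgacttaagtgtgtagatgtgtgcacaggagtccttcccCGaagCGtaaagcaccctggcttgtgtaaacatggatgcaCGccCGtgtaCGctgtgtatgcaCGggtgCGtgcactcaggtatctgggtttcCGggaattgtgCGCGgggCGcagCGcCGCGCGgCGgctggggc
Hdac7-208: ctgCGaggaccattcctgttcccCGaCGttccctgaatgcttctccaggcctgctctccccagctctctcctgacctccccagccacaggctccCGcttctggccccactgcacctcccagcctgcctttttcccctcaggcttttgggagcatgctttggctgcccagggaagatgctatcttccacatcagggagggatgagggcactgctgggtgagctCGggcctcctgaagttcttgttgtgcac

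The whole window of Hdac11, 250 bases before to 50 after the RefSeq start, held 22 CG dinucleotides. That was more than in 76.9% of the 32851 promoter windows in the RefSeq table, whose median was 7. The RefSeq start lies downstream of the GENCODE start of Hdac11-201, and 6 of the 22 CG dinucleotides lay before the GENCODE start. Hdac7 had starts rich and poor in CG. The window of Hdac7-202 held 35 CG dinucleotides and that of Hdac7-208 held 5, and its other windows held 31 and 6. Of the transcripts shown for Hdac7, only Hdac7-208 was among those with the largest shares of its reads (16.0% over the 12 libraries). On both strands, the Hdac11 window had 1 match to the GC box GGGCGG, present in 35.7% of all windows, and 1 to CCAAT, present in 37.4%. The GC box lies before the GENCODE start, and the CCAAT match begins at that start. The window had no match to the E box CACGTG or to TATAAA, present in 7.15% and 13.6%. Of the 9 members, 7 had a window in the table.

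Hdac11 (ENSMUSG00000034245, chromosome 6, 91156665 to 91174692, plus strand, GRCm38) was read in every wild-type library and almost not at all in Chd5-/-. At 3 h wild type had 397, 301 and 293 reads (replicates 1, 2 and 3) and Chd5-/- had 3, 0 and 0. At 48 h wild type had 491, 524 and 566 reads and Chd5-/- had 0, 2 and 4. In CPM the wild-type libraries measured 40.2, 17.1 and 16.3 at 3 h and 30.0, 35.3 and 32.1 at 48 h, while the highest Chd5-/- library reached 0.252. Wild-type and Chd5-/- libraries did not overlap at either time, as for 45% of all genes at 3 h and 23.2% at 48 h. The wild-type mean was 420 times the level given by the 3 reads of Chd5-/- at 3 h (95% exact Poisson interval 144 to 2035) and 254 times that given by the 6 reads at 48 h (117 to 693). The intervals cover only the counting error of the Chd5-/- reads and take the wild-type mean as fixed. At 3 h that mean, 24.5 CPM, includes the 40.2 CPM of replicate 1, a library that stood apart. A library with 0 reads could have held up to 3. All of the reads in Chd5-/-, and 94.8% of those over all 12 libraries, were assigned to the coding transcript Hdac11-201 of 2653 bases.

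**Figure D1:**
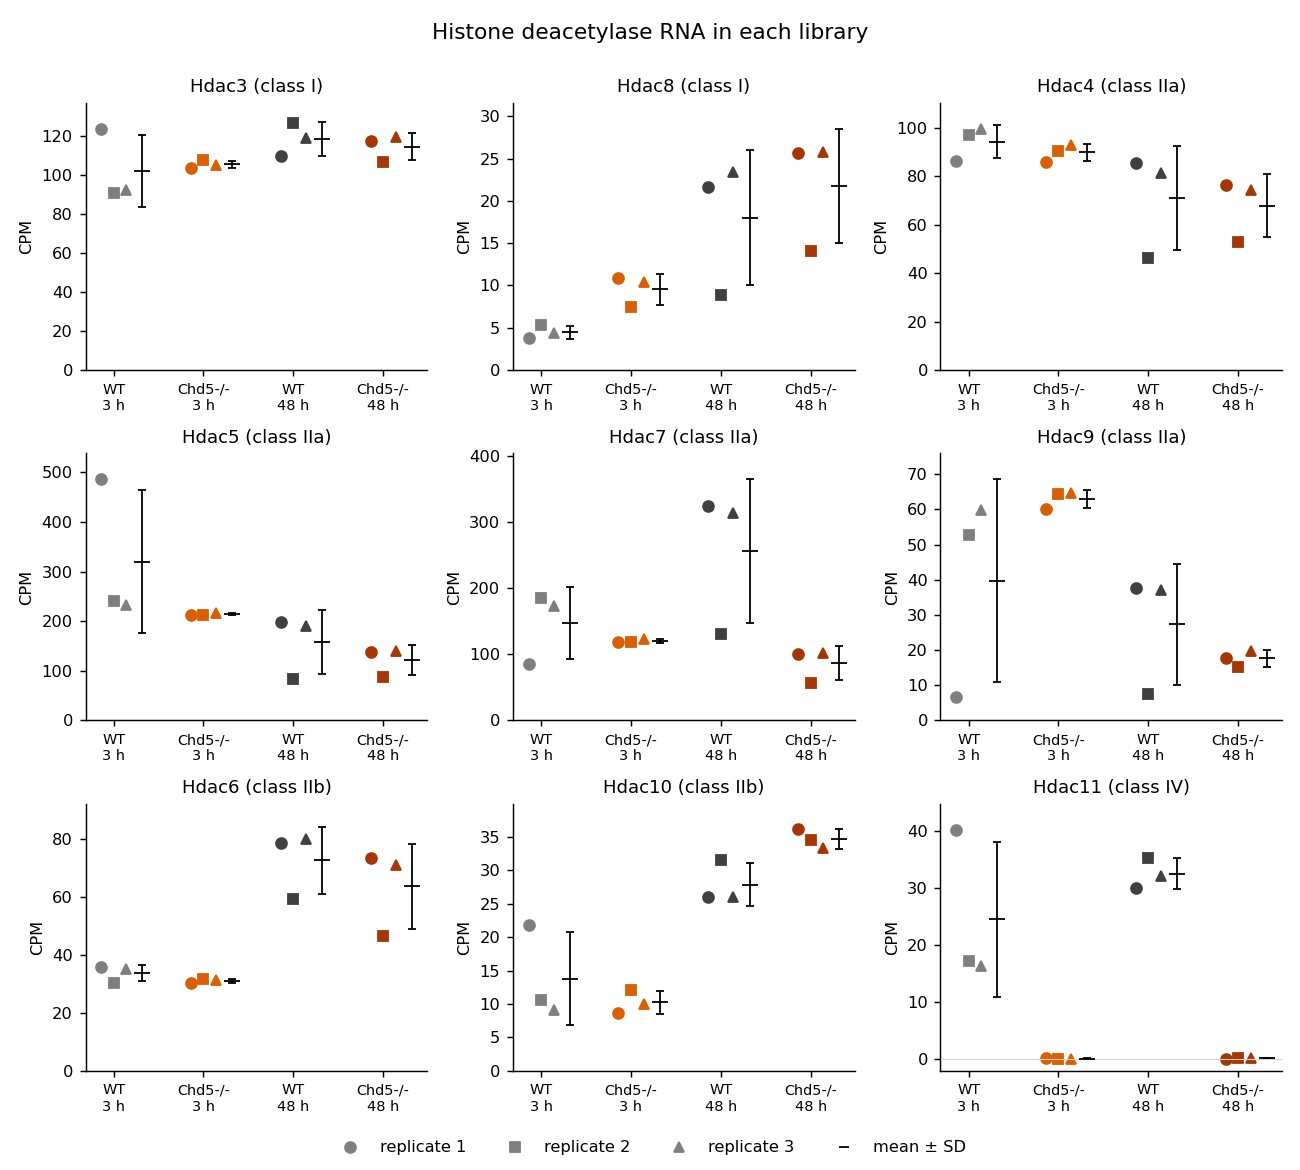
CPM of the 9 genes in each library, 1 panel per gene with its own axis; symbols mark the replicate number and the bar beside them the mean ± SD of the 3 libraries. Hdac11 lies at or near 0 in all 6 Chd5-/- libraries, and at 48 h replicate 2 is the lowest library of both genotypes for Hdac4, Hdac5, Hdac6, Hdac7, Hdac8 and Hdac9.

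In wild type, where time was not part of the choice of the gene, Hdac11 did not pass the test between 48 h and 3 h (log2 fold change 0.41 ± 0.58 SE, n = 3 per group, adjusted p = 0.637). Replicate 1 at 3 h lay above all 48 h libraries and its companions below them. With the 9 libraries Hdac11 rose by 0.86 on the log2 scale (adjusted p = 0.000106), in a comparison where 77% of all genes passed. An offset for transcript length also made the rise pass (1.83, adjusted p = 0.0462).

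A mean of at least 5 CPM in wild type at both times with at most 3 reads in Chd5-/- at 3 h was found for 6 of the 16043 genes (0.0374%), Hdac11 included. The limit of 3 reads is the count of Hdac11 itself, so its place among them was fixed beforehand. The share is a description and tests nothing about Hdac11. By the root mean square difference between centred log2(CPM + 0.5) profiles over the 12 libraries, the 5 coding genes most like Hdac11 of 13319 were Pitpnm1 (0.56), AI464131 (0.73), Apeh (0.85), Slc38a1 (0.86) and Tpbg (0.91). Each lies on another chromosome than Hdac11. Pitpnm1 had 8.49 to 11.3 CPM in wild type at 3 h, 14.2 to 16.9 CPM at 48 h and at most 0.0668 CPM in Chd5-/-. Slc38a1, a neutral amino acid transporter and the most abundant of the 5, had 48.8, 108 and 109 CPM in wild type at 3 h and 4.86, 4.36 and 5.75 CPM in Chd5-/-.

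The 10 nearest genes that passed the filter around Hdac11 ran from Gm44421, 677 kb before it, to Chchd4, 287 kb after it. By edgeR, 0 of 10 passed between genotypes at 3 h, where 6.71% of all genes passed, and 0 of 10 at 48 h, where 2.74% did. At an unadjusted p under 0.05, which 23.6% and 11.5% of all genes had, there were 2 and 1, and DESeq2 and limma-voom called 0 at both times. Nup210, a nuclear pore gene 39.8 kb before Hdac11, had 282 to 369 CPM in wild type and 489 to 542 CPM in Chd5-/- at 3 h. Fbln2, an extracellular matrix gene 37.8 kb after it, had 1133 to 1144 CPM and 607 to 638 CPM. Its log2 fold change was -0.88 ± 1.15 at 3 h (adjusted p = 0.674) and -2.72 ± 1.22 at 48 h (adjusted p = 0.423). Within each number at 48 h wild type was higher for Fbln2, by 6.52, 6.58 and 6.88 times. With the replicate number as a block within each time, its difference at 48 h was -2.74 ± 0.19 and passed (adjusted p = 0.00169). It was the 1 neighbour of 10 that did, beside 3.13% of all genes. The check of the 48 h libraries set replicate 2 apart and did not pair numbers 1 and 3. With the 9 libraries, 5 of the 10 passed at 3 h (4 higher, 1 lower) and 8 at 48 h (6 higher, 2 lower), where 53.6% and 47.7% of all genes passed. The antisense gene Gm14573 within Hdac11 had 0 reads in every library, and Gm44002, on the strand opposite its 3′ part, at most 3.

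**Figure D2:**
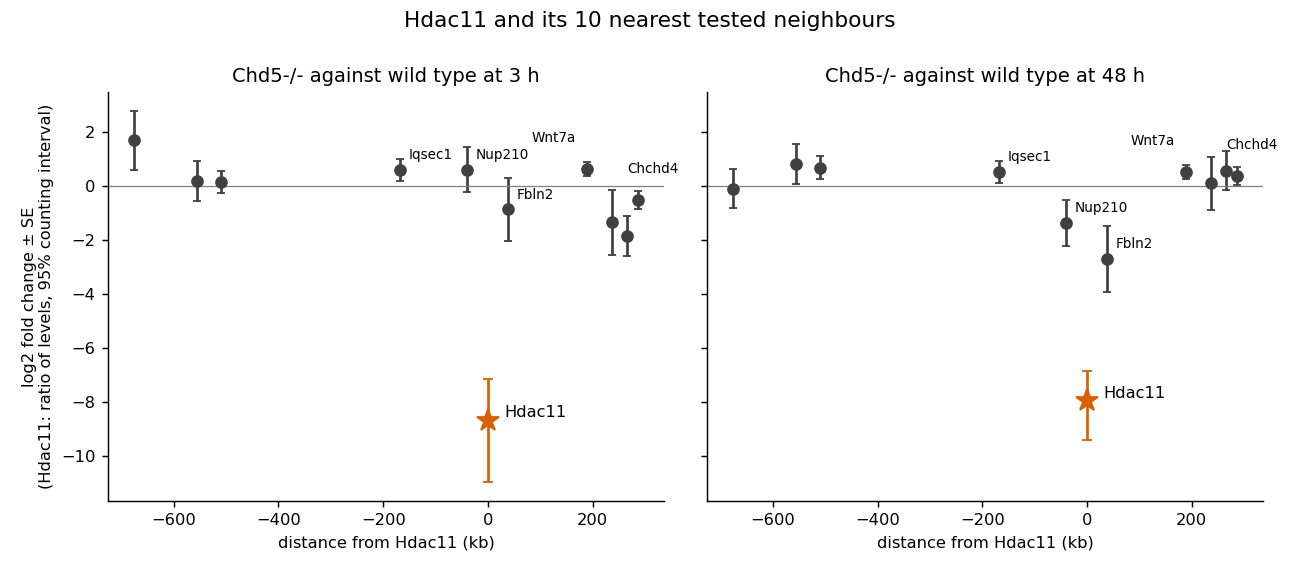
Log2 fold change of Chd5-/- against wild type for the 10 nearest genes that passed the filter (points, ± SE), by distance in kb from Hdac11 (negative before it), at 3 h and at 48 h. The star is Hdac11, placed at the ratio of levels with its 95% counting interval, and lies far below the neighbours, of which Fbln2 is the lowest at 48 h (-2.72).

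Hdac7 (ENSMUSG00000022475, chromosome 15, 97792664 to 97844502), a class IIa enzyme best known from thymocytes and blood vessels, differed most between genotypes at 48 h among the 8 members tested. Wild type had 325, 130 and 314 CPM and Chd5-/- had 101, 56.6 and 102 CPM. The groups did not overlap, as for 23.2% of all genes at 48 h, and within each number wild type was higher, by 3.22, 2.30 and 3.07 times. The log2 fold change of -1.57 ± 0.41 SE (n = 3 per group) missed the threshold in edgeR (adjusted p = 0.0757), so that 0 of the 8 members passed at 48 h, against 2.74% of all genes. At an unadjusted p under 0.05 there was 1, Hdac7, which DESeq2 called (-1.57, adjusted p = 0.00441) and limma-voom did not (-1.50, adjusted p = 0.0952). With the replicate block, fitted over all 12 libraries, the 48 h difference was -1.50 ± 0.27 and passed (adjusted p = 0.0347), as did 3.13% of all genes.

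That call depended on the method and on the libraries used. Hdac7 passed at 48 h without wild-type replicate 2 of that time (-1.88, adjusted p = 0.0206) and without wild-type replicate 1 at 3 h (-1.56, adjusted p = 0.0214). From the 9 libraries, with n = 2 per group at 48 h, it was -1.645 (adjusted p = 7.97e-12). In that fit 5 of the 8 members passed, where 47.7% of all genes did: Hdac4, Hdac5, Hdac7 and Hdac9 lower and Hdac10 higher in Chd5-/-. Over 23 alternatives the Hdac7 difference lay between -1.88 and -1.34 and passed in 7. At 3 h Hdac7 measured 84.8, 185 and 174 CPM in wild type, around the 119, 119 and 124 CPM of Chd5-/- (-0.29 ± 0.40, adjusted p = 0.681). The low wild-type value is that of the library rich in RNA of ribosomal protein genes. From the 9 libraries the 3 h difference was -0.57 (adjusted p = 3.07e-08). Between 3 h and 48 h Hdac7 had log2 fold changes of 0.80 ± 0.40 in wild type (adjusted p = 0.166) and -0.48 ± 0.40 in Chd5-/- (adjusted p = 0.425). Without wild-type replicate 2 at 48 h the first was 1.11 and passed (adjusted p = 0.0388). The 3′ end of Hdac7 runs into the end of Slc48a1 on the opposite strand (to 97792692). Slc48a1 had between 842 and 2517 reads, and the strand setting of the counting is not given in the sources used here.

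Hdac5 (ENSMUSG00000008855), which is exported from the nucleus of neurons on activity, had 487, 240 and 233 CPM in wild type against 212, 213 and 217 CPM in Chd5-/- at 3 h. At 48 h the values were 199, 82.8 and 191 CPM against 139, 86.9 and 140 CPM. The high 3 h value came from the wild-type library that stood apart, where 59.9% of Hdac5 reads lay on retained-intron transcripts, against 11.9% and 13.1% in its group. Neither genotype difference passed (-0.58 ± 0.38 at 3 h and -0.37 ± 0.38 at 48 h, adjusted p = 0.387 and 0.912). The 3 h value was -0.14 without wild-type replicate 1 of that time. Leaving out 1 library in turn moved the 48 h value between -0.68, without wild-type replicate 2 of that time, and -0.17, without wild-type replicate 1. Libraries did not overlap with time in either genotype, as for 37.7% of all genes in wild type and 64.6% in Chd5-/-, but the log2 fold changes of -1.02 ± 0.39 in wild type and -0.81 ± 0.39 in Chd5-/- missed the threshold (adjusted p = 0.0784 and 0.157). DESeq2 called the first (-1.10, adjusted p = 0.0340), and the second passed without wild-type replicate 1 at 3 h (-0.84, adjusted p = 0.0492).

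Hdac9 (ENSMUSG00000004698), whose gene also encodes a form without the catalytic domain, differed widely between libraries of one group. Wild type had 6.58, 52.6 and 59.8 CPM at 3 h and 37.6, 7.42 and 37.0 CPM at 48 h, so that in each wild-type group the library that stood apart was low. Chd5-/- had 60.0, 64.3 and 64.6 CPM at 3 h and 17.8, 15.2 and 19.9 CPM at 48 h. The change with time in Chd5-/- left no overlap, as for 64.6% of all genes, and measured -1.84 ± 0.71 on the log2 scale (adjusted p = 0.0905). It passed in DESeq2 (adjusted p = 0.0283), and without wild-type replicate 1 at 3 h (-1.86, adjusted p = 0.0123) or wild-type replicate 2 at 48 h (-1.84, adjusted p = 0.0463). Between genotypes the differences were 0.66 ± 0.69 at 3 h and -0.63 ± 0.70 at 48 h (adjusted p = 0.591 and 0.923). From the 9 libraries they were 0.16 and -0.98, and both passed (adjusted p = 0.0331 and 7.37e-07).

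Hdac4 (ENSMUSG00000026313), a class IIa repressor active in neurons and cartilage, had no difference that passed with all 12 libraries. At 3 h it measured 86.5, 97.0 and 99.6 CPM in wild type against 86.0, 90.7 and 93.0 CPM in Chd5-/-. At 48 h the values were 85.5, 46.4 and 81.4 CPM against 76.3, 53.0 and 74.4 CPM, with replicate 2 lowest in both genotypes. Its genotype differences were -0.07 ± 0.25 at both times (adjusted p = 0.890 and 1), and an offset for transcript length turned both (0.0046 and 0.10). Its changes with time were -0.41 ± 0.25 in both genotypes (adjusted p = 0.259 and 0.278). Every 48 h library lay below every 3 h library of its genotype, in wild type narrowly (85.5 against 86.5 CPM). Libraries did not overlap with time for 37.7% of all genes in wild type and 64.6% in Chd5-/-.

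**Figure D3:**
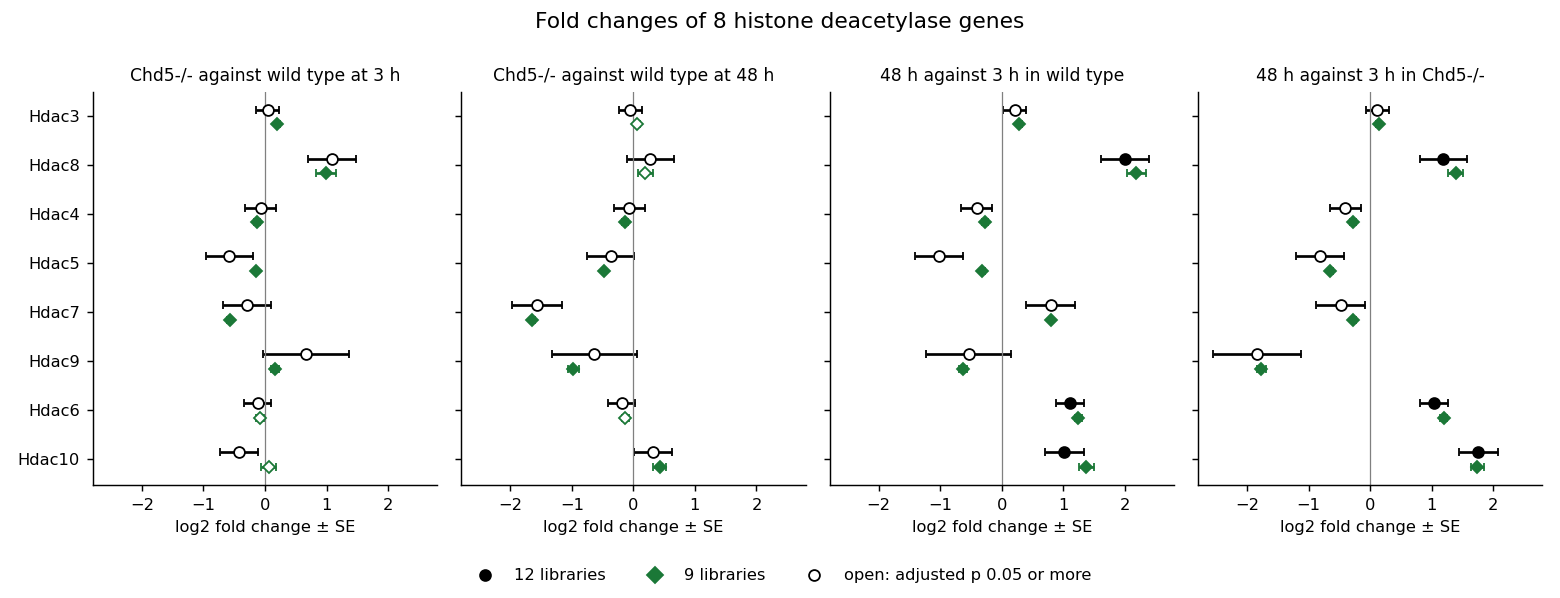
Log2 fold changes ± SE of the 8 members other than Hdac11 in 4 comparisons, from all 12 libraries (circles) and from the 9 that remain without the 3 that stood apart (diamonds); filled symbols passed at an adjusted p under 0.05. Hdac6, Hdac8 and Hdac10 are filled with all libraries in both comparisons of time, and no circle is filled between genotypes.

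The members that changed with time were Hdac6, Hdac8 and Hdac10, which rose in both genotypes. In wild type 3 of the 9 members passed, all higher, where 22.9% of all genes passed and 12.7% were higher. In Chd5-/- 3 of 8 passed, again all higher, against 22.1% and 14.1% of all genes. The median log2 fold change of the members was 0.41 in wild type and -0.14 in Chd5-/-, beside 0.09 and 0.04 over all genes. With the 9 libraries 9 of 9 passed in wild type (6 higher, 3 lower) and 8 of 8 in Chd5-/- (4 higher, 4 lower), where 77% and 79.8% of all genes passed. In a fit of the wild-type groups alone 0 of 9 passed in edgeR, as did 0% of all genes, and 2 had an unadjusted p under 0.05. The comparisons share groups with those between genotypes, so their values are not independent of each other. Markers of other cell types moved with time too. The 6 astrocyte markers, all above the filter, summed to 68.6 to 85.4 CPM at 3 h and to 194 to 993 CPM at 48 h. In wild-type replicate 2 at 48 h Gfap (1.01 CPM), Aldh1l1 (1.75 CPM) and S100b (6.14 CPM) lay below all wild-type 3 h libraries. Aqp4, Slc1a2 and Gja1 lay above them there. The 10 oligodendrocyte lineage markers summed to 649 to 968 CPM and to 1276 to 2134 CPM, with Mog at 0 in 3 of the 4 groups. That sum was carried by Olig1 and Olig2, both highest at 48 h in replicate 2 of each genotype. The mean of Mbp fell in wild type (1.48 to 0.42 CPM) and rose in Chd5-/- (0.23 to 0.62 CPM). The part of these markers in the changes of the members was not tested.

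Hdac6 (ENSMUSG00000031161, chromosome X, 7930120 to 7947889), the cytoplasmic enzyme that deacetylates tubulin, had 35.8, 30.5 and 35.02 CPM in wild type at 3 h and 78.8, 59.3 and 80.0 CPM at 48 h. Chd5-/- had 30.2, 31.7 and 31.2 CPM and then 73.4, 46.6 and 71.0 CPM. No 48 h library overlapped a 3 h library, as for 37.7% of all genes in wild type and 64.6% in Chd5-/-. The rise was 1.11 ± 0.22 on the log2 scale in wild type (adjusted p = 0.00861) and 1.04 ± 0.22 in Chd5-/- (adjusted p = 0.00907). The wild-type rise ended as a call in a fit of those groups alone (1.07, adjusted p = 0.119). That in Chd5-/- passed in all 22 alternatives run. Between genotypes it measured -0.12 ± 0.22 at 3 h and -0.19 ± 0.22 at 48 h (adjusted p = 0.774 and 0.933).

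Hdac10 (ENSMUSG00000062906, chromosome 15, 89123307 to 89128700), a deacetylase of the polyamine N8-acetylspermidine, rose from 21.8, 10.5 and 9.10 CPM to 26.0, 31.6 and 26.0 CPM in wild type and from 8.72, 12.1 and 9.96 CPM to 36.2, 34.5 and 33.4 CPM in Chd5-/-. The change was 1.02 ± 0.31 in wild type (adjusted p = 0.0406) and 1.76 ± 0.32 in Chd5-/- (adjusted p = 0.00415). The wild-type call was lost on leaving out any 1 of 10 of the 12 libraries and held without wild-type replicate 1 at 3 h, where it was larger (1.48, adjusted p = 0.000520), and without Chd5-/- replicate 2 at 48 h. Counted on protein-coding transcripts alone, the changes were -0.13 ± 1.75 and 0.18 ± 1.75 (adjusted p = 1 for both). Of its reads over the 12 libraries, 21.7% were assigned to the processed transcript Hdac10-204 and 20.5% and 13.6% to the retained-intron transcripts Hdac10-205 and Hdac10-207. At 48 h every Chd5-/- library lay above every wild-type library, where 23.2% of all genes did not overlap in one direction or the other. The difference of 0.32 ± 0.31 did not pass (adjusted p = 0.895), and at 3 h it was -0.42 ± 0.31 (adjusted p = 0.444).

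Hdac8 (ENSMUSG00000067567, chromosome X, 102284639 to 102505359), which deacetylates the cohesin subunit Smc3, was the member with the fewest reads in wild type at 3 h (37, 93 and 79). These came to 3.75, 5.30 and 4.38 CPM, against 10.8, 7.45 and 10.4 CPM in Chd5-/-. At 48 h the values were 21.7, 8.83 and 23.5 CPM in wild type and 25.6, 14.02 and 25.7 CPM in Chd5-/-. All 48 h libraries lay above all 3 h libraries of their genotype. In one direction or the other, 37.7% of all genes did not overlap in wild type and 64.6% in Chd5-/-. The rise was 2.00 ± 0.40 in wild type (adjusted p = 0.00788) and 1.19 ± 0.38 in Chd5-/- (adjusted p = 0.0485). The second was lost in 9 of the 12 fits that left out 1 library and in limma-voom (1.15, adjusted p = 0.0607). It held without wild-type replicate 1 at 3 h or replicate 2 of either genotype at 48 h, where its adjusted p fell as low as 0.0128.

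At 3 h Hdac8 was the member nearest the threshold between genotypes. Chd5-/- lay above wild type without overlap, in a comparison where 45% of all genes did not overlap in one direction or the other, and the log2 fold change was 1.09 ± 0.39 (n = 3 per group, adjusted p = 0.129). In edgeR 0 of the 8 members passed at 3 h, against 6.71% of all genes. Of the 8, 1, Hdac8, had an unadjusted p under 0.05, as did 23.6% of all genes, and DESeq2 and limma-voom called 0. Without wild-type replicate 2 at 48 h, a library outside the comparison that enters the shared spread, Hdac8 passed (1.09, adjusted p = 0.0430). With the 9 libraries 6 of 8 passed, where 53.6% of all genes did: Hdac3, Hdac8 and Hdac9 higher and Hdac4, Hdac5 and Hdac7 lower in Chd5-/-. The 7 neuron markers, of which 5 passed the filter, summed to 1194 to 1303 CPM in Chd5-/- and to 234 to 642 CPM in wild type at 3 h. That sum was carried by Map2 (mean 360 CPM in wild type and 1162 CPM in Chd5-/-), while Tubb3 had the lower mean in Chd5-/- (142 and 93.8 CPM), as had Dcx, Syt1, Rbfox3 and Stmn2, each under 1 CPM. Acta2 was high in the same 3 libraries. The part of these markers in the differences was not tested. At 48 h the Hdac8 difference was 0.28 ± 0.38 (adjusted p = 0.968).

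Hdac3 (ENSMUSG00000024454), the catalytic subunit of the NCoR and SMRT corepressor complexes, kept to a narrow range in CPM. Across the 12 libraries it lay between 90.9 and 126.6 CPM. By deposited TPM, which is scaled for transcript length, it ran from 14.6 to 66.3. In TPM every 48 h library lay above every 3 h library of its genotype. Wild type had 123.6, 90.9 and 92.3 CPM at 3 h and 109.5, 126.6 and 119.1 CPM at 48 h. Chd5-/- had 103.7, 107.5 and 105.2 CPM and then 117.3, 106.5 and 119.6 CPM. None of its comparisons passed (adjusted p = 0.905 and 1 between genotypes, 0.431 and 0.689 with time). Its genotype difference of 0.04 ± 0.19 at 3 h changed sign with other size factors (-0.02). Without wild-type replicate 1 at 3 h the wild-type change with time was 0.35 and passed (adjusted p = 0.0305).

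Whether the change with time differed between genotypes was tested as an interaction. By edgeR 0 of the 8 members passed, against 0.231% of all genes, and DESeq2 and limma-voom also called 0. At an unadjusted p under 0.05, which 10% of all genes had, there was 1, Hdac7, with an interaction of -1.27 ± 0.56 on the log2 scale (adjusted p = 0.490). Hdac9 and Hdac8 followed at -1.30 ± 0.98 and -0.82 ± 0.54 (adjusted p = 0.652 and 0.615). With the 9 libraries Hdac5, Hdac7, Hdac8 and Hdac9 passed, all lower, where 41.5% of all genes did.

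Of the NuRD enzymes, Hdac1 had 212 to 217 CPM in wild type and 224 to 228 CPM in Chd5-/- at 3 h, and fell by 0.74 ± 0.21 and 0.76 ± 0.21 on the log2 scale by 48 h (adjusted p = 0.0336 and 0.0289). Hdac2 had changes of -0.47 ± 0.20 and -0.54 ± 0.20 (adjusted p = 0.110 and 0.0784). Their difference from the members was not tested.

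Levels of different genes were set side by side by deposited TPM, which is scaled for transcript length, summed over the transcripts of a gene. Hdac5 was highest at 3 h in both genotypes, with medians of 74.0 TPM in wild type and 71.8 TPM in Chd5-/-, and its libraries did not overlap those of Hdac3, next in order at 36.2 and 46.0 TPM. At 48 h wild type was led by Hdac7 (median 101 TPM, range 32.9 to 101), Hdac5 (93.0), Hdac3 (60.9) and Hdac11 (49.2). Each of these overlapped the next in the order, and Hdac11 lay above Hdac6 (19.9) without overlap. Chd5-/- was led by Hdac3 (65.0 TPM, range 54.6 to 66.3) and Hdac5 (59.4), which overlapped, and then Hdac7 (28.0), which lay below Hdac5 without overlap. Hdac11 was last in Chd5-/- at both times, with at most 0.075 TPM, and seventh of 9 in wild type at 3 h.

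**Figure D4:**
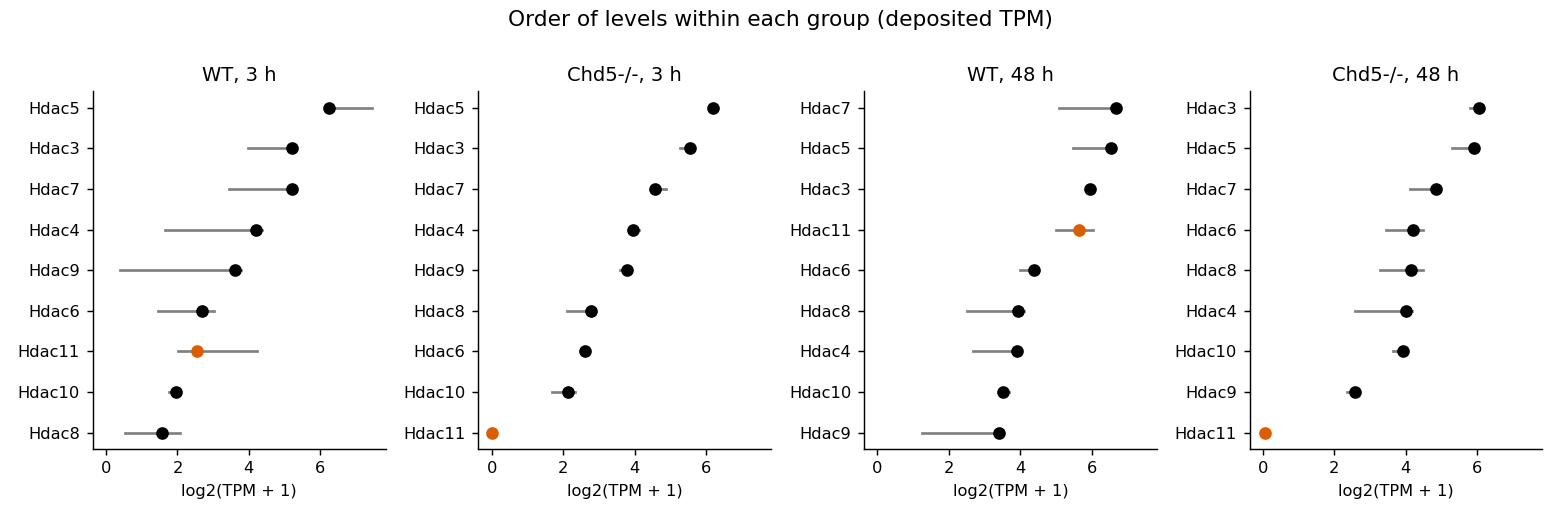
Median (point) and range (line) of the 3 libraries on the log2(TPM + 1) scale for the 9 genes in each group, ordered by the median, with Hdac11 in orange. Hdac11 moves from the fourth place in wild type at 48 h to the last in Chd5-/-, and its line in wild type at 3 h runs from 3.07 to 17.7 TPM before the log scale is taken.

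TPM of Hdac11 in wild type spread more widely than its CPM. It was 3.07, 4.82 and 17.7 TPM at 3 h and 31.0, 49.2 and 64.2 TPM at 48 h. The same libraries gave 40.2, 17.1 and 16.3 CPM at 3 h and 30.0, 35.3 and 32.1 CPM at 48 h. At 3 h the order differed as well, with replicate 1 highest by CPM and lowest by TPM. The places of Hdac11 in wild type given above rest on this TPM.

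For several members the share of reads that the authors' quantification placed on transcripts annotated as retaining an intron was higher at 48 h. In Chd5-/-, Hdac3 rose in this share from 9.18%, 4.27% and 7.72% to 19.7%, 25.4% and 20.9%, and Hdac7 from 9.78%, 10.7% and 14.95% to 29.9%, 31.9% and 24.4%. Hdac10 went from 31.2%, 22.3% and 21.2% to 44.6%, 46.1% and 40.8%. Of the 7 members with at least 50 reads in every library, 5 were higher without overlap (Hdac3, Hdac6, Hdac7, Hdac9 and Hdac10), as were 41.9% of 5850 genes. In wild type 3 of the 7 were (Hdac6, Hdac9 and Hdac10), as were 42.7% of genes. Without wild-type replicate 1 at 3 h 6 of the 7 were, with Hdac3, Hdac5 and Hdac7 added, as were 54.2% of genes. Wild-type replicate 1 at 3 h again differed, with 47.4% for Hdac3, 73.8% for Hdac7 and 8.30% for Hdac10. Shares between overlapping transcripts are estimates of the quantification and were not tested.

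**Figure D5:**
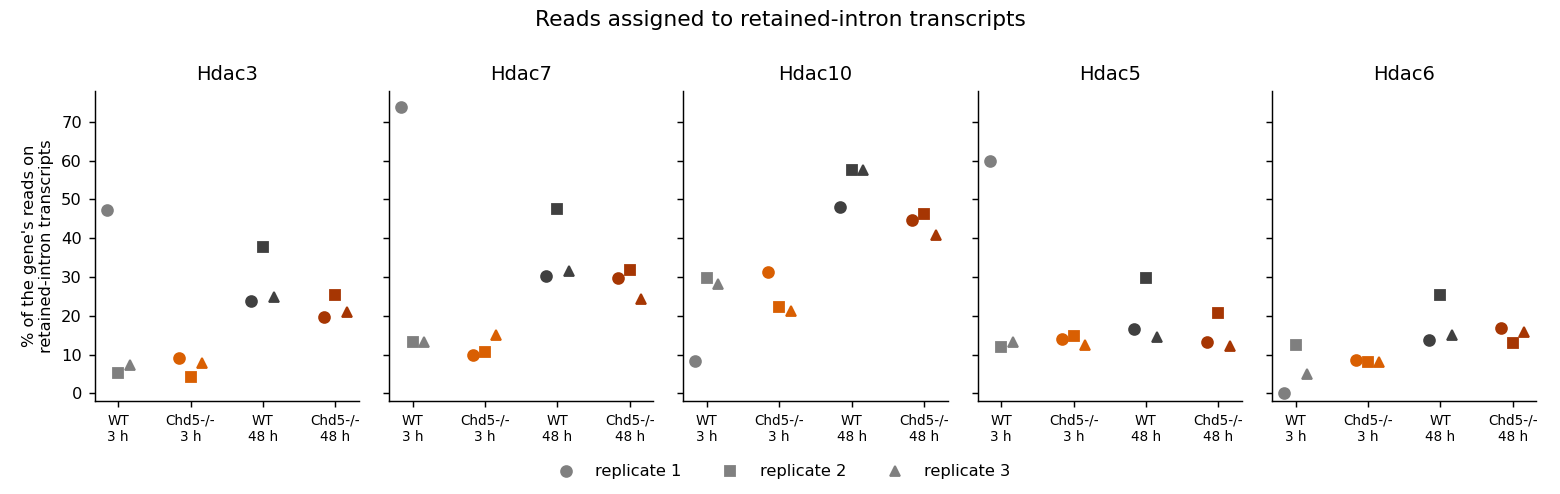
Share of a gene's estimated reads on transcripts annotated as retained intron, in percent, for 5 members in each of the 12 libraries; symbols mark the replicate number. Hdac3, Hdac7 and Hdac10 are higher at 48 h in all Chd5-/- libraries, and wild-type replicate 1 at 3 h lies far from the other libraries of its group for Hdac3, Hdac5, Hdac7 and Hdac10.

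The partners, substrates and counterparts of these enzymes were followed in 11 lists of 70 genes, all of them above the filter. Between genotypes at 3 h edgeR called 0 of 70, beside 6.71% of all genes. At an unadjusted p under 0.05 were 11 (15.7%, beside 23.6%), DESeq2 called 5 (7.14%, beside 13.6%) and limma-voom 1 (1.43%, beside 6.2%). At 48 h edgeR again called 0, beside 2.74%, with 4 at an unadjusted p under 0.05, 3 in DESeq2 (beside 6%) and 0 in limma-voom (beside 3%). With the replicate block 1 passed, Camk2a, named after its values were seen, beside 3.13%. The interaction had 0 in edgeR, 5 at an unadjusted p under 0.05, 1 in DESeq2 (beside 2.51% of all genes) and 0 in limma-voom. With time 15 passed in wild type (4 higher, 11 lower), or 21.4%, beside 22.9% of all genes, and 18 in Chd5-/- (4 higher, 14 lower), or 25.7%, beside 22.1%. Their median log2 fold change was -0.21 in wild type and -0.28 in Chd5-/-, beside 0.09 and 0.04 over all genes. From the 9 libraries 42 of 70 passed between genotypes at each time (60%, beside 53.6% and 47.7% of all genes), 36 in the interaction (51.4%, beside 41.5%), and 64 and 61 with time (91.4% and 87.1%, beside 77% and 79.8%).

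Among the MEF2 factors, the DNA-binding targets of class IIa enzymes, 1 of 4 fell with time in wild type and 3 of 4 in Chd5-/-. For this and the following lists, 22.9% of all genes passed with time in wild type and 22.1% in Chd5-/-, in either direction. Mef2c went from 54.6, 172 and 181 CPM to 36.3, 19.4 and 38.7 CPM in wild type and from 179, 199 and 195 CPM to 23.2, 30.1 and 20.6 CPM in Chd5-/- (-2.11 ± 0.43 and -2.96 ± 0.44, adjusted p = 0.00852 and 0.00158). Mef2a fell by 1.71 ± 0.41 on the log2 scale in Chd5-/- (adjusted p = 0.0140), and its change in wild type was -0.85 ± 0.40 (adjusted p = 0.144). Of the 13 kinases that phosphorylate class IIa enzymes, 2 rose and 3 fell in wild type (38.5% passed), and 2 rose and 2 fell in Chd5-/- (30.8%). Camk2g rose in both (1.34 ± 0.28 and 1.19 ± 0.28, adjusted p = 0.00988 and 0.0134). Camk2a, the calcium kinase subunit of forebrain neurons, went from 7.19, 11.7 and 13.3 CPM to 133, 11.2 and 135 CPM in wild type (3.11 ± 0.82, adjusted p = 0.0235), with replicate 2 at the 3 h level. In Chd5-/- it had 6.76 to 7.74 CPM and then 10.5, 2.14 and 11.0 CPM (0.15 ± 0.77, adjusted p = 0.914). Camk4 fell in both genotypes (-1.51 ± 0.41 and -1.79 ± 0.42, adjusted p = 0.0256 and 0.0126). Of the 6 genes of 14-3-3 proteins, 2 fell in wild type (33.3%) and 3 in Chd5-/- (50%). Among them were Ywhah (-1.30 ± 0.32 and -2.28 ± 0.33, adjusted p = 0.0180 and 0.00138) and Ywhaq (-0.77 ± 0.21 and -1.06 ± 0.21, adjusted p = 0.0279 and 0.00618).

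Around Hdac6, Atat1, the acetyltransferase that opposes it on tubulin, rose in wild type from 10.6, 6.49 and 7.21 CPM to 31.5, 16.1 and 32.2 CPM (1.72 ± 0.33, adjusted p = 0.00699). In Chd5-/- it had 13.8 to 16.0 CPM and then 29.1, 18.4 and 29.2 CPM (0.77 ± 0.32, adjusted p = 0.109). Hsp90aa1, a chaperone that Hdac6 deacetylates, fell in both (-1.13 ± 0.28 and -1.65 ± 0.28, adjusted p = 0.0181 and 0.00302), as did Tuba1b, an alpha-tubulin (-2.11 ± 0.56 and -2.07 ± 0.56, adjusted p = 0.0240 and 0.0232). In polyamine metabolism, Odc1, which makes putrescine, fell (-1.24 ± 0.20 and -1.11 ± 0.20, adjusted p = 0.00408 and 0.00411) and Sat1, which acetylates spermidine and spermine, rose (1.17 ± 0.21 and 0.94 ± 0.21, adjusted p = 0.00536 and 0.00955). In all, 1 of 12 genes of this list rose and 2 fell in wild type, and 2 rose and 2 fell in Chd5-/-. Thus 25% and 33.3% of the list passed, beside 22.9% and 22.1% of all genes. Of the 3 BET readers of acetyl-lysine, Brd2 fell in Chd5-/- (-0.84 ± 0.23, adjusted p = 0.0254), and its change in wild type was -0.32 ± 0.23 (adjusted p = 0.331). In edgeR 0 of the 5 NCoR and SMRT partners of Hdac3, 0 of 8 cohesin genes, 0 of 9 lysine acetyltransferases and neither comparison of Shmt2, a metabolic enzyme that Hdac11 deacylates, passed with time. At an unadjusted p under 0.05 these held 0, 0, 1 and 0 in wild type, where 38.3% of all genes had one, and 1, 3, 1 and 0 in Chd5-/-, where 35.7% did. DESeq2 called none of them in wild type and 1 NCoR partner and 1 acetyltransferase in Chd5-/-, and limma-voom called none. From the 9 libraries Shmt2 fell in both genotypes (-2.12 and -2.11), and of the cohesin genes 6 of 8 fell in wild type and 6 fell and 1 rose in Chd5-/-. The same fits called 5 and 3 of the 5 NCoR and SMRT partners and 9 and 6 of the 9 acetyltransferases, beside 77% and 79.8% of all genes.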

How the data were processed

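For 12 mRNA libraries (Trizol extraction and a TruSeq Stranded mRNA preparation, per the labels' protocols) the authors deposited Salmon transcript tables; the submitters' processing notes name the tool, and its version, settings and index were not given in these sources. The deposited estimated counts and TPM cover 140658 transcripts. Transcripts were matched to GENCODE M21 (GRCm38); 521 did not match and were left out (0.135% to 0.181% of reads). Estimated counts were summed per gene and rounded. Genes passing filterByExpr (minimum count 10, minimum total 15) were tested in edgeR 4.0.16 (R 4.3.3): TMM scaling, 1 mean per group over all 12 libraries, two-sided quasi-likelihood tests and Benjamini-Hochberg adjustment over 16043 genes (threshold 0.05). Alternatives included DESeq2 1.42.0 and limma-voom 3.58.1.

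The members, the lists and the 3 libraries left out were chosen with earlier results of these data known. Named are all members, Chd5, up to 2 genes of a list with the smallest p among those passing a comparison, the 5 nearest filtered genes on each side of Hdac11, genes overlapping a member, and the 5 genes most like Hdac11; other lists' genes are named as not passing. Same-numbered libraries deviated together at 48 h (correlations 0.66, 0.77 and 0.66 over 16043 genes), and the number was used as a block for that comparison. Numbers 1 and 3 correlated across as much (0.68 and 0.67), so the check sets replicate 2 apart but does not pair numbers 1 and 3. The block fit over the 12 libraries also gave the 3 h libraries blocks by number. At 3 h (0.22, 0.11 and 0.09) and over time the numbers did not pair the libraries.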

Additional observations from a re-analysis of the deposited data

How the results depend on the processing

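Counts of members that passed moved most with the libraries used. Without the 3 libraries that stood apart they were 6 and 5 of 8 between genotypes (3 h, 48 h; 0 with all), 9 of 9 and 8 of 8 with time (3 each) and 4 of 8 in the interaction (0). The shares of all genes moved too, to 53.6%, 47.7%, 77%, 79.8% and 41.5%, from 6.71%, 2.74%, 22.9%, 22.1% and 0.231% with all libraries. With 1 library left out in turn they ranged over 0 to 1, 0 to 1, 2 to 4, 2 to 5 and 0 to 0. With only the groups compared they were 0 with time in wild type and 5 in Chd5-/-. At 48 h DESeq2, the transcript length offset, the replicate block and the block over the 48 h libraries alone (-1.51, adjusted p = 0.0128; added after the pairing check) each gave 1, Hdac7; the block left 0 in wild type with time, where the numbers do not pair the libraries, and 2 in Chd5-/-, and changed no other member's call between genotypes; outside the members it added Fbln2 and Camk2a at 48 h. Differences near 0 changed sign. At 3 h these were Hdac3 in DESeq2 (-0.0163) and with RLE size factors (-0.0183; -0.0332 to 0.2034 with 1 library left out), Hdac4 with no filter (0.0018) or a length offset (0.0046), and Hdac10 with the 9 libraries (0.0583; -0.65 to 0.0641). At 48 h they were Hdac3 by protein-coding transcripts (0.0558) and with the 9 libraries (0.0596; -0.1037 to 0.0023), Hdac8 (-0.0499 to 0.5108) and Hdac4 (-0.298 to 0.0852) with 1 library left out, Hdac4 with a length offset (0.0991) and Hdac10 by protein-coding transcripts (-0.46). With time, protein-coding transcripts turned Hdac10 in wild type (-0.13) and Hdac3 in Chd5-/- (-0.0572). Over the members, 703 alternatives kept direction and call, 42 gained a call, 33 lost one and 19 changed sign. This tally holds the interaction for Hdac7, Hdac8 and Hdac9 only, and Hdac11 only with time in wild type. The causes were not tested. With 37 to 93 reads, depth limits Hdac8 in wild type at 3 h, and with 0 to 4 reads Hdac11 in Chd5-/-.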
